A study of Mus musculus with 10 samples.

Results

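The circadian clock genes of bone endothelium were followed here through 10 members, Arntl, Clock, Npas2, Nfil3, Per1, Per2, Per3, Dbp, Nr1d1 and Nr1d2. These genes were selected on their measured levels in the groups compared below, out of 26392 genes in the count tables, so their differences between groups are given as a description and without a test. All 10 had unique molecular identifier (UMI) counts, which stand for single captured transcripts, in each of the 10 libraries. The libraries hold single cells from the femur and tibia of Cdh5-mTnG mice on a C57BL/6 background, in which a vascular endothelial promoter (Cdh5) drives a membrane tdTomato and a nuclear GFP, and GFP and tdTomato double-positive cells were sorted after depletion of blood lineages. There were 2 libraries in each of 5 groups. The juvenile group was 3 weeks old and mixed males and females, with 2 male and 2 female mice. The adult group was 12 weeks old with 6 females, and the aged group was 75 weeks old with 3 females. Females of 12 weeks treated with parathyroid hormone (PTH, injected daily) or with alendronate (a bisphosphonate that blocks bone resorption, given every other day) made up the remaining groups, whose numbers of animals are not given in the sources used here. Each group was 1 pooled experiment, so the spread between its libraries may be technical. The hour at which the mice were killed is not given in the sources used here, and a difference in hour between groups cannot be told apart from age or treatment.

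The clock is a feedback loop of transcription that runs in nearly every cell and is kept in step by light, feeding and glucocorticoids. BMAL1 (the product of Arntl) pairs with CLOCK or with its relative NPAS2 and switches on genes with an E-box, among them the Per genes, Dbp, Nr1d1 and Nr1d2. PER proteins then block this pair, while the nuclear receptors REV-ERBα and REV-ERBβ (Nr1d1 and Nr1d2) repress Arntl, Npas2, Clock and Nfil3 through RRE sites. DBP activates and NFIL3 represses genes with a D-box. In peripheral mouse tissues the RNAs of Nfil3, Arntl, Npas2 and Clock peak from late night to dawn, those of Nr1d1, Dbp, Nr1d2 and Per3 peak by day, and those of Per1 and Per2 peak around dusk. The first 4 genes are called the night arm below and the other 6 the day arm. Per1 and Nfil3 also answer acute stimuli, Per1 among them to glucocorticoids.

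In the mm10 genome the night arm lies at chr13:52967209-52981073 on the minus strand (Nfil3), chr7:113207465-113314126 on the plus strand (Arntl), chr1:39193731-39363236 on the plus strand (Npas2) and chr5:76209868-76304792 on the minus strand (Clock). The day arm lies at chr11:98767932-98775333 on the minus strand (Nr1d1), chr7:45705088-45710203 on the plus strand (Dbp), chr14:18204054-18239127 on the minus strand (Nr1d2), chr4:151003652-151044665 on the minus strand (Per3), chr11:69095217-69109960 on the plus strand (Per1) and chr1:91415982-91459324 on the minus strand (Per2). Exons of Nr1d1 share 263 bases (8.55% of its exon bases) with Thra, and exons of Dbp share 539 bases (18.0%) with Sphk2, both on the opposite strand. The strand setting of the authors' counting is not stated, so UMIs of these pairs cannot be told apart with certainty.

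RefSeq promoters of GRCm38.p6 were found for 9 of the 10 members, and their 250 bases before the transcription start were searched on both strands for an E-box (CACGTG), a D-box (TTATGTAA) and an RRE (TAGGTCA or TGGGTCA). In these windows an E-box was found only in Per1, a D-box only in Per3 and an RRE only in Nfil3. Per2 had no promoter entry and was not searched. Sites with other letters, or outside the 250 bases, were not searched, so the other members may hold such sites elsewhere. Over 27025 genes with promoters searched in the same way, 6.86% held the E-box, 0.977% the D-box and 6.15% the RRE. The promoters of Per3 and Per1 are shown because the letters of the D-box, bound by DBP and NFIL3, occur at 2 places in Per3. Per1 holds the E-box read by BMAL1, and went a different way from Per3 in the juvenile and aged groups below. Whether the motifs bear on this was not tested. Another promoter entry of Per1 (chr11:69099902-69100151) held no E-box. The sequences run 5′ to 3′ on the strand of the gene and the motifs are in capitals. The Per3 window is chr4:151044666-151044915 on the minus strand, with the D-boxes starting 205 and 158 bases before the start, and the Per1 window is chr11:69098699-69098948 on the plus strand, with the E-box starting 166 bases before it.
Per3: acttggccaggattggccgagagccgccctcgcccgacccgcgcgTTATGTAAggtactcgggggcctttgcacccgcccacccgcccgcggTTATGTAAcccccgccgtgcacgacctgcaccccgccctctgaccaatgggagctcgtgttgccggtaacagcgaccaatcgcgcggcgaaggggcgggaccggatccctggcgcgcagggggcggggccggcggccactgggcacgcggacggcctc
Per1: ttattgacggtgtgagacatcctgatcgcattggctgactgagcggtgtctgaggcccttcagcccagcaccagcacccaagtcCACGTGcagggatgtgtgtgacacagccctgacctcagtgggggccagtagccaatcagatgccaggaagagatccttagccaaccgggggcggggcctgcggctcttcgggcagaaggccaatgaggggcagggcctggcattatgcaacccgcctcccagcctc
A match of letters is a description of these windows and was not tested for binding.

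Of 47466 barcodes, 46283 had 500 to 6000 genes and under 25% mitochondrial UMIs and were kept. Total UMIs ranged from 10653583 in PTH 1 to 28419323 in PTH 2, and pairs of libraries shared 1 to 78 barcodes (median 21 over 45 pairs). The sort label held for most cells. Of the kept cells 43758 were endothelial, 2006 were blood cells, 260 were stromal (206 osteoblast-like and 54 mural-like), and 259 were set aside. The latter formed a cluster led by Ibsp and Adipoq that carried 7 of 7 mesenchymal markers together with Cdh5 at 750.4 CPM. The endothelial cells carried Cdh5 at 1091 to 1321 CPM (UMIs scaled to a fixed library total) and the pan-blood gene Ptprc at 0 to 0.717 CPM. Summed markers of blood types differed between groups in these sums. The 7 erythroid markers were at 587 to 1268 CPM in juvenile, 352 to 705 in adult, 367 to 621 in aged, 250.1 to 504 in alendronate and 98.8 to 105 in PTH, and the 8 myeloid markers ran from 6.60 to 10.7 CPM in juvenile to 97.1 to 127 in aged. The 7 lymphoid markers ran from 82.6 to 89.4 CPM in juvenile to 431 to 437 in aged, and the 5 megakaryocyte markers from 21.8 to 25.4 CPM in aged to 165.2 to 169.6 in juvenile. Their part in the levels below was not tested. The sums also hold 2474 cells of clusters left unnamed, 439 of them with Hba-a1 and Hba-a2 as leading genes. The aged libraries stood apart. They alone held UMIs for 1944 genes, their scaling factors were 1.21 against 0.931 to 0.990 elsewhere, and 55.1% of all 15205 genes tested differed from adult. An age difference therefore cannot be told apart from a difference in how the aged libraries were made or counted.

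In all endothelial cells, adult bone was high in Dbp, Per3, Nr1d1 and Nr1d2 and low in Arntl and Nfil3, PTH and alendronate bone was low in these day genes and in Per2 and high in Arntl and Nfil3, juvenile bone was high in the dusk genes Per1 and Per2, and aged bone was high in Arntl and Clock while Nr1d1 stayed near the adult level. Levels are given in CPM of the UMIs summed over all endothelial cells of a library, scaled by TMM, in the order replicate 1 then replicate 2. Log2 fold changes (edgeR) are given with their standard error. Juvenile, aged, PTH and alendronate groups were all set against the same 2 adult libraries. Genes are not compared with each other in level, since 3′ tags are captured with a different yield from each gene. Fewer transcripts in each cell and fewer cells that carry them cannot be told apart in these sums. The make-up of the sums also differed between groups, and its part in the levels was not tested. Marrow sinusoid cells (bmEC-like, below) were 2887 of 5396 in adult 1 and 2549 of 4105 in juvenile 1. They were 504 of 2230 in aged 1, 2086 of 7346 in PTH 2 and 2326 of 5679 in alendronate 1. Values within classes are given further below.

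Arntl, the gene of the core activator BMAL1, was at 7.80 and 5.94 CPM in adult, 9.32 and 9.36 in juvenile, 21.7 and 24.96 in aged, 21.6 and 22.1 in PTH and 23.9 and 25.4 in alendronate endothelium. Every aged and treated library lay above every adult and juvenile library. Against adult the log2 fold change was 1.76 ± 0.11 in aged, 1.67 ± 0.11 in PTH and 1.84 ± 0.11 in alendronate, and 0.44 ± 0.13 in juvenile. Clock, the partner of BMAL1, was at 24.3 and 24.9 CPM in adult, 28.4 and 26.3 in juvenile, 56.7 and 58.4 in aged, 27.95 and 28.5 in PTH and 30.7 and 33.3 in alendronate. Only the aged libraries stood far from the others, with a log2 fold change of 1.23 ± 0.06 against adult, while PTH (0.20 ± 0.07) and alendronate (0.38 ± 0.07) rose little above it. Nfil3, the D-box repressor, was at 3.62 and 4.18 CPM in adult, 3.33 and 3.48 in juvenile, 6.90 and 6.08 in aged, 9.32 and 10.2 in PTH and 7.42 and 8.79 in alendronate. PTH libraries were the highest, and the log2 fold change against adult was 1.34 ± 0.15 in PTH, 1.06 ± 0.15 in alendronate, 0.74 ± 0.16 in aged and -0.19 ± 0.18 in juvenile. Npas2, the relative of Clock, was close to the limit of detection, with 3 and 5 UMIs in adult, 8 and 18 in juvenile, 6 and 17 in aged, 4 and 29 in PTH and 20 and 21 in alendronate. No fold change is given for it.

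Nr1d1, the gene of REV-ERBα, was at 29.2 and 30.9 CPM in adult, 10.4 and 11.2 in juvenile, 30.5 and 26.3 in aged, 14.5 and 15.1 in PTH and 15.6 and 18.4 in alendronate. The aged libraries overlapped the adult ones and all others were lower. The log2 fold change against adult was -1.47 ± 0.10 in juvenile, -1.01 ± 0.09 in PTH, -0.82 ± 0.09 in alendronate and -0.08 ± 0.08 in aged. Dbp, an output gene that swings widely in most tissues, was at 10.2 and 10.9 CPM in adult, 3.15 and 3.86 in juvenile, 6.70 and 6.27 in aged, 2.38 and 2.25 in PTH and 3.63 and 3.39 in alendronate. Adult libraries were the highest and PTH libraries the lowest, with a log2 fold change of -2.19 ± 0.16 in PTH, -1.59 ± 0.15 in juvenile, -1.58 ± 0.14 in alendronate and -0.70 ± 0.13 in aged. Nr1d2, the gene of REV-ERBβ, moved in a narrower range, at 65.5 and 69.3 CPM in adult, 58.4 and 55.4 in juvenile, 55.2 and 54.0 in aged, 34.3 and 36.7 in PTH and 46.7 and 47.1 in alendronate. Its log2 fold change was -0.91 ± 0.06 in PTH and -0.52 ± 0.05 in alendronate, and -0.24 ± 0.05 in juvenile and -0.30 ± 0.05 in aged. With plain library totals the aged value was 0.04, and that of Nr1d1 was 0.26.

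Per3, a PER family gene that peaks before the other members of that family, was at 154 and 160 CPM in adult, 122 and 109 in juvenile, 86.1 and 87.3 in aged, 53.7 and 53.6 in PTH and 55.7 and 53.9 in alendronate. The treated libraries lay close together and below all others, at log2 fold changes of -1.55 ± 0.05 (PTH) and -1.52 ± 0.05 (alendronate). The aged value was -0.86 ± 0.05 and the juvenile value -0.44 ± 0.05. Per1 did not follow Per3. It was at 14.0 and 15.1 CPM in adult, 42.0 and 44.3 in juvenile, 30.9 and 28.2 in aged, 8.56 and 10.7 in PTH and 15.2 and 16.4 in alendronate. Juvenile and aged libraries were the highest, with log2 fold changes of 1.57 ± 0.08 and 1.02 ± 0.09, while PTH was at -0.53 ± 0.11 and alendronate at 0.12 ± 0.10. Per2 was at 10.2 and 8.61 CPM in adult, 15.98 and 16.4 in juvenile, 10.4 and 9.97 in aged, 2.06 and 2.37 in PTH and 3.63 and 3.66 in alendronate. Aged and adult libraries overlapped, juvenile libraries were the highest (0.78 ± 0.11) and the treated ones the lowest (-2.04 ± 0.16 in PTH and -1.37 ± 0.14 in alendronate).

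**Figure D1:**
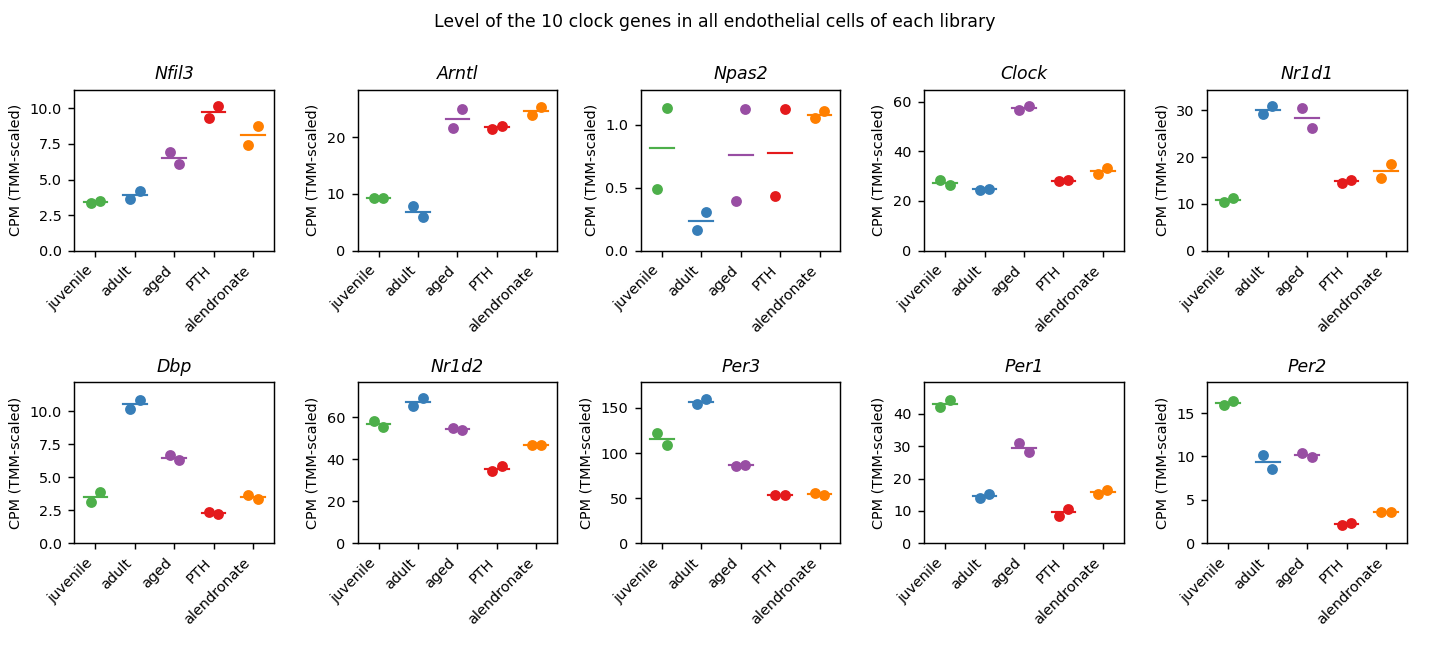
Level of each of the 10 clock genes in all endothelial cells (CPM, TMM-scaled, vertical axis from 0), with 1 point per library, 2 libraries a group and a line at the group mean. Arntl sits at 21.6 to 25.4 CPM in the aged and treated libraries and at 5.94 to 9.36 in the juvenile and adult ones, while Per3 is highest in adult, at 154 and 160 CPM.

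The 2 libraries of a group did not overlap those of adult for 10 of 10 members in juvenile, 8 of 10 in aged, 10 of 10 in PTH and 10 of 10 in alendronate. With 2 libraries against 2 this is a weak separation, since 71.3%, 86.5%, 61.3% and 63.8% of all 15205 genes were separated in the same comparisons. PTH and alendronate libraries, which share no sample, were separated for 9 of 10 members (64.1% of all genes), Npas2 being the exception. Dbp (-0.61 ± 0.19), Per2 (-0.67 ± 0.19), Per1 (-0.65 ± 0.10) and Nr1d2 (-0.39 ± 0.06) were lower in PTH, and Per3 was nearly level (-0.03 ± 0.06). The Dbp difference turned sign in bmEC-like cells (marrow sinusoids) taken alone.

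The groups were then placed by phase order. For each gene the mean of the 5 group means of log2(CPM + 1) was subtracted, so that a positive excess marks a group above the average of the groups. In adult the largest excess was that of Dbp (1.03), followed by Per3 (0.86) and Nr1d1 (0.65), and the lowest that of Arntl (-1.06), which is the order of a sample taken by day. In PTH the order ran from Nfil3 (0.64) and Arntl (0.49) down to Per1 (-0.96) and Per2 (-1.29), and in alendronate from Arntl (0.65) and Nfil3 (0.40) down to Per3 (-0.64) and Per2 (-0.76), which is the order of late night to dawn. In juvenile endothelium Per2 (1.13) and Per1 (1.1) led and Nr1d1 was lowest (-0.75), the order of dusk. The aged group could not be placed, since Clock (0.81), Arntl (0.58), Per1 (0.57) and Nr1d1 (0.57), whose textbook peaks are far apart, all lay above the average and none of the 10 genes lay below it (lowest 0.01 for Per3). A textbook order was taken as given and was not fitted in these mice, and whether the order stands for the hour of collection was not tested.

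**Figure D2:**
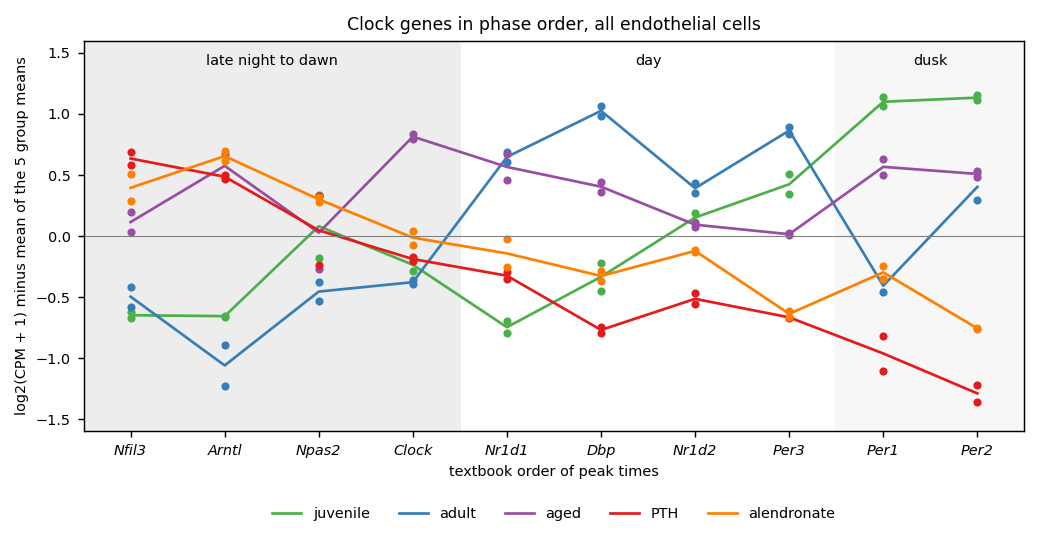
Excess of each clock gene, log2(CPM + 1) minus the mean of the 5 group means, in all endothelial cells, with the genes along the horizontal axis in the textbook order of their peaks. Points are libraries and lines join group means. Adult peaks at Dbp (1.03), juvenile at Per2 (1.13) and Per1 (1.1), PTH at Nfil3 (0.64) and alendronate at Arntl (0.65), while aged values are at or above 0 throughout.

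A ratio within each library needs no scaling between libraries. The UMIs of the day arm over those of the night arm gave a log2 ratio of 3.02 ± 0.06 in adult (mean ± SD, n = 2), 2.59 ± 0.02 in juvenile, 1.29 ± 0.09 in aged, 1.11 ± 0.07 in alendronate and 0.96 ± 0.00 in PTH endothelium. Adult and juvenile libraries had the highest ratios and PTH the lowest, and no group overlapped another. Per3 supplied 5404 of the 9944 day-arm UMIs in adult and Clock most of the night-arm UMIs, so the ratio leans on these. Early day against dusk, as the log2 ratio of Nr1d1 to Per2 UMIs, separated juvenile (-0.59 ± 0.04) from adult (1.68 ± 0.23), aged (1.48 ± 0.11), alendronate (2.22 ± 0.17) and PTH (2.75 ± 0.10). The adult and aged values were close beside the SD of the adult libraries. Without Per1 and Nfil3 the order of the 5 groups in the day to night ratio was the same, at 3.11 in adult, 2.44 in juvenile, 1.19 in aged, 1.12 in alendronate and 1.095 in PTH.

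The same ratio was taken in each endothelial class. Classes were named from marker genes after clustering without any of the 10 members among the variable genes. They are bmEC-like cells (19029 cells, marrow sinusoids), mpEC-like cells (12179, capillaries of the metaphysis near the growth plate), aEC-like cells (6405, arteries), rEC-like cells (3017, vessels at sites of bone remodelling) and pEC-like cells (654, dividing cells). The vessel type given is that of the markers and was not checked in tissue. The largest mpEC-like cluster (5136 cells) was raised in 3 of the 5 markers of its class. In each of the 5 classes adult had the highest group mean and the treated and aged groups had lower ones. The fall was largest in rEC-like cells, from 4.52 ± 0.27 in adult to 0.63 ± 0.11 in PTH, 0.47 ± 0.29 in alendronate and 0.78 ± 0.25 in aged. In bmEC-like cells it ran from 3.10 ± 0.08 in adult to 1.55 ± 0.08 in PTH, 1.34 ± 0.01 in alendronate and 1.89 ± 0.02 in aged. The night arm in adult rEC-like cells rested on 9 and 11 UMIs, and the difference between classes in the size of the fall was not tested. Juvenile rEC-like cells (50 and 32 cells) gave 3.70 ± 1.57, too wide to place, and 1 of them lay above the adult libraries.

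**Figure D3:**
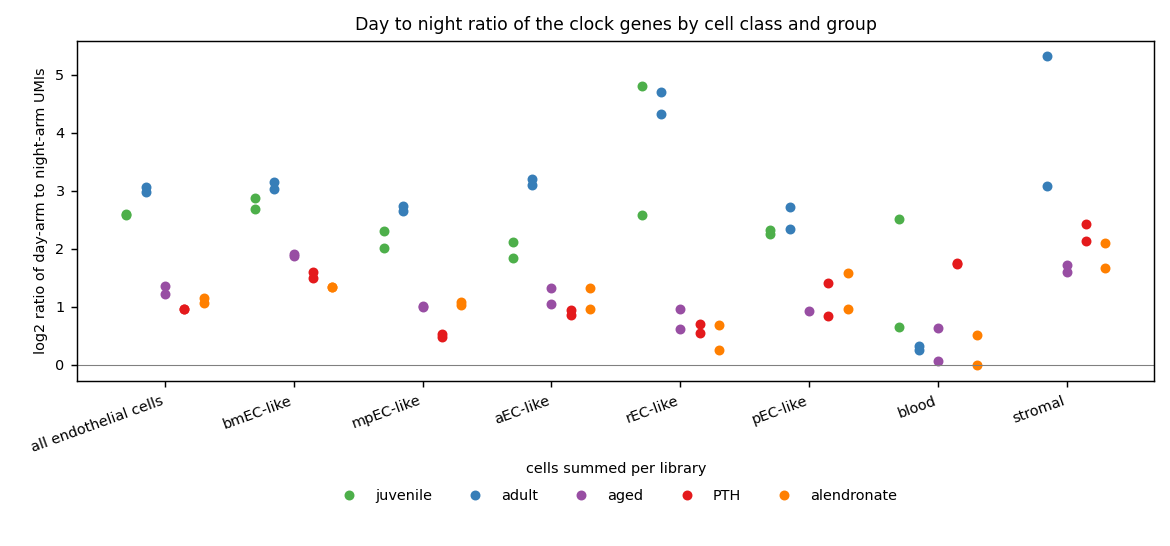
Log2 ratio of day-arm to night-arm UMIs (vertical axis) in sums of each class of cells, 1 point per library and 5 groups by colour, for sums of at least 20 clock UMIs. Adult libraries lie highest in all endothelial cells (3.02 on average) and in the endothelial classes except rEC-like cells, where 1 juvenile library is higher, and PTH and alendronate libraries lie near 1 in all endothelial cells (0.96 and 1.11). In the pooled blood cells, which differ in make-up between groups, adult libraries are not the highest.

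Single members did not all follow the ratio in each class. In bmEC-like cells, aged means lay above adult for Nr1d2 (81.9 against 73.8 CPM), Per1 (31.6 against 12.4 CPM) and Per2 (20.9 against 9.94 CPM), and below it for Per3 (123.6 against 162.8 CPM) and Dbp (7.57 against 10.6 CPM). Nr1d1 in rEC-like cells was at 69.0 and 73.3 CPM in adult, 42.6 and 31.4 in aged, 16.2 and 28.8 in PTH and 17.9 and 22.3 in alendronate. In bmEC-like cells it was at 30.3 and 32.2 CPM in adult, 42.4 and 33.0 in aged, 19.99 and 18.3 in PTH and 18.2 and 19.3 in alendronate. Aged libraries thus lay below adult in the former and above it in the latter, a difference between classes that was not tested. The latter depended on the scaling. With bmEC-like sums scaled alone, aged (36.9 and 28.8 CPM) and adult (28.6 and 30.5 CPM) libraries overlapped for Nr1d1. Arntl in rEC-like cells was at 4.06 and 4.73 CPM in adult against 42.6 and 46.2 in aged, 37.8 and 36.3 in PTH and 44.8 and 49.1 in alendronate. In mpEC-like cells it was at 10.6 and 8.68 CPM in adult against 26.8 and 26.7 in aged, 22.8 and 24.5 in PTH and 23.7 and 22.9 in alendronate. Adult lay below these groups in both classes, but its rEC-like values rested on 2 UMIs in each library.

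Whether the members differ between endothelial classes was tested within libraries, with each class against the mean of the other 4, the library as a block and edgeR's quasi-likelihood test with Benjamini-Hochberg adjustment over 12615 genes. A gene was called at an adjusted p under 0.05 and an absolute log2 fold change above 0.5. Npas2 was too low to be tested and 9 members remained. In rEC-like cells 4 of the 9 were called, all higher, where 30.3% of all genes were called. Arntl (0.96 ± 0.13, adjusted p = 2.1e-08) was at a lowest, median and highest of 0, 37.0 and 49.1 CPM over the 10 libraries, and was the highest of the classes in 6 of them. Nr1d1 (0.94 ± 0.16, adjusted p = 1.3e-06), Per1 (0.88 ± 0.13, adjusted p = 2.1e-07) and Nfil3 (0.77 ± 0.20, adjusted p = 0.0012) were also higher, and Per1 was the highest of the classes in 9 of 10 libraries. Nr1d1 was the highest in 4 libraries. Nfil3 was the highest in 4 libraries and the lowest in 4. The calls of Arntl and Nfil3 followed the aged and treated libraries, the groups in which these genes are high. The adult means of Arntl were 4.39 CPM in the rEC-like class, 6.25 in bmEC-like, 9.64 in mpEC-like and 5.55 in aEC-like cells, and those of Nfil3 were 2.20, 3.12, 4.46 and 4.34 CPM in the same order. Juvenile rEC-like cells held no Nfil3 UMI.

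In aEC-like cells 3 of 9 members were called, all higher, where 26.5% of all genes were called. They were Dbp (1.02 ± 0.24, adjusted p = 0.00029), Nr1d1 (0.91 ± 0.12, adjusted p = 2.9e-09) and Clock (0.61 ± 0.09, adjusted p = 4.6e-08). Clock was at a lowest, median and highest of 27.3, 40.0 and 81.3 CPM there and was the highest of the classes in 8 of 10 libraries. Dbp was the highest in 5, and so was Nr1d1. The mean of other classes behind the Dbp calls of aEC-like and bmEC-like cells includes pEC-like cells, with 0 to 3 Dbp UMIs a library. In bmEC-like cells 5 of 9 were called, where 33.7% of all genes were called. Per2 (0.92 ± 0.16, adjusted p = 2.7e-06), Nr1d2 (0.57 ± 0.07, adjusted p = 1.1e-09), Dbp (0.53 ± 0.22, adjusted p = 0.034) and Nr1d1 (0.51 ± 0.11, adjusted p = 5.9e-05) were higher and Nfil3 was lower (-0.85 ± 0.15, adjusted p = 1.4e-06). Dbp and Nr1d1 lay close to the fold threshold, and the count fell to 3 when any of 6 libraries (PTH 1, aged 1, aged 2, alendronate 1, juvenile 1 or juvenile 2) was left out and to 2, Per2 and Nfil3, without the aged libraries, an alternative chosen after seeing the data. Nr1d1 was thus called higher in rEC-like, aEC-like and bmEC-like cells alike, at means of 31.8, 29.5 and 24.1 CPM. The other classes in each case included mpEC-like and pEC-like cells, where its means were 11.3 and 8.03 CPM.

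In mpEC-like cells 1 of 9 members was called, where 15.8% of all genes were called. Nr1d1 was lower there (-0.90 ± 0.14, adjusted p = 3.3e-07), at a lowest, median and highest of 5.48, 9.90 and 20.04 CPM. A cluster of 2129 of these cells, led by Gm10800, had a median depth of 0.342 of that of its libraries. In pEC-like cells 7 of 9 were called, all lower, where 27.3% of all genes were called. The largest were Dbp (-1.69 ± 0.60, adjusted p = 0.021), Nr1d1 (-1.45 ± 0.28, adjusted p = 2.1e-05), Per1 (-0.85 ± 0.19, adjusted p = 0.00024) and Clock (-0.82 ± 0.18, adjusted p = 0.00018). The Dbp value rested on 0 to 3 UMIs a library. Per3, Arntl and Nr1d2 were the others. This class had 20 to 122 cells in each of the 9 libraries used, and without adult 1 the count fell to 4 and without the aged libraries to 5. Nfil3 (-0.15 ± 0.30, adjusted p = 0.74) and Per2 (-0.76 ± 0.41, adjusted p = 0.14) did not pass the test in it.

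**Figure D4:**
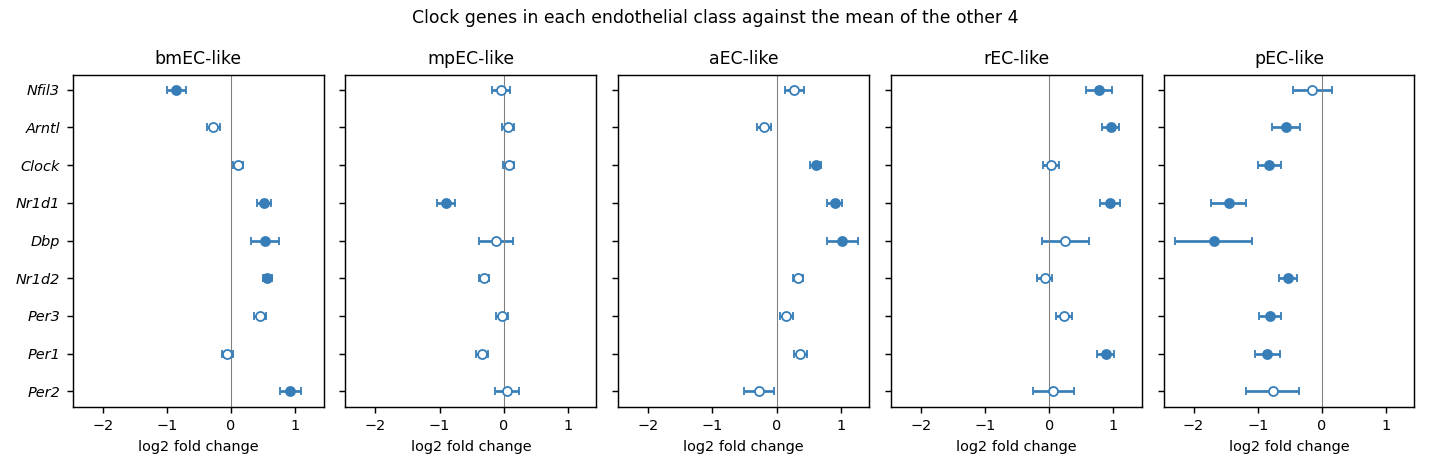
Log2 fold change of 9 clock genes (rows) in each endothelial class against the mean of the other 4 classes, with bars of 1 standard error. Filled points passed the test (adjusted p under 0.05 and absolute log2 fold change above 0.5). The 7 called genes of pEC-like cells lie left of 0 and the 4 of rEC-like cells lie right of it.

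Blood and stromal cells that came through the sort give the clock genes of other cells in the same libraries. Against blood cells (90 to 322 cells a library, 10 libraries), 6 of 9 members tested were called, all higher in endothelium, where 68.2% of all genes were called. Clock was at a lowest, median and highest of 1.87, 4.44 and 13.0 CPM in blood cells and 22.5, 26.4 and 55.0 CPM in endothelium (log2 fold change 2.52 ± 0.19, adjusted p = 1.0e-08). Nr1d2 was at 6.75, 8.71 and 11.5 CPM in blood cells and 31.8, 51.0 and 64.0 CPM in endothelium (2.46 ± 0.12, adjusted p = 6.2e-11). Nr1d1 (2.07 ± 0.20, adjusted p = 1.4e-07), Dbp (1.42 ± 0.21, adjusted p = 2.0e-05) and Per3 (1.37 ± 0.18, adjusted p = 6.0e-06) were higher in endothelium in 10 of 10 libraries, and Per2 in 8 of 10 (0.80 ± 0.29, adjusted p = 0.022). Arntl (-0.60 ± 0.36, adjusted p = 0.14), Nfil3 (-0.66 ± 0.33, adjusted p = 0.077) and Per1 (0.36 ± 0.21, adjusted p = 0.13) did not pass the test. Free RNA in the droplets was not removed and also gives such UMIs.

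In the pooled blood cells the group pattern was not that of endothelium, but it differed by blood cell type. Arntl in all blood cells was at 41.9 and 40.4 CPM in adult, 7.88 and 18.8 in juvenile, 16.5 and 16.5 in aged, 10.3 and 11.1 in PTH and 42.2 and 33.8 in alendronate. Adult and alendronate were the high groups, whereas in endothelium adult was the lowest. The make-up of the blood cells also differed between groups, though not in the same order as Arntl. Lymphoid cells made up 38.1% and 40.99% of adult blood cells, 26.5% and 25.6% of juvenile, 16.7% and 15.03% of aged and 19.8% and 21.9% of alendronate ones, and none were found in PTH. They held 149 of the 167 Arntl UMIs of adult blood cells. Within a type the order was another. In the cluster led by Elane, Mpo and Prtn3 (myeloid granule genes), Arntl had 13 of 2086998 UMIs in adult, 16 of 1542517 in PTH, 26 of 3410256 in alendronate and 12 of 1487021 in aged. In erythroid cells it had 5 of 1008982 UMIs in adult, 14 of 1282459 in PTH, 8 of 990012 in alendronate and 9 of 1688929 in aged. In lymphoid cells it had 149 of 946061 in adult, 156 of 684054 in alendronate and 39 of 275060 in aged. Juvenile had 0 of 275499 in the Elane and Mpo cluster, 5 of 1092163 in erythroid and 15 of 284146 in lymphoid cells. PTH and alendronate thus lay above adult, as in endothelium, in each type that could be compared. Unlike in endothelium, aged lay below adult in lymphoid cells and juvenile was no higher than adult in any of these types. All of this rests on few UMIs, with no test. In the Elane and Mpo cluster the day arm gave 77.7% of clock UMIs in adult (95% Clopper-Pearson interval 70.8 to 83.5, counting error only), 77.2% in PTH (69.9 to 83.5), 74.5% in alendronate (69.2 to 79.3) and 64.5% in aged (57.5 to 71.1). In erythroid cells it gave 83.6% in adult (72.5 to 91.5), 75.3% in PTH (64.7 to 84.0) and 74.3% in alendronate (62.4 to 84.0), with intervals that overlap. In lymphoid cells it gave 25% in adult (19.3 to 31.5), 14.5% in alendronate (9.86 to 20.3), 27.6% in aged (16.7 to 40.9) and 48.65% in juvenile (31.9 to 65.6). In endothelium it gave 89.0% in adult (88.4 to 89.6) and 66.1% in PTH (64.9 to 67.3). Set against the Elane and Mpo cluster alone, in the 8 libraries with at least 20 of its cells, 7 of 9 members were called. There 66.7% of all genes were called, and the comparison was chosen after seeing the data. Among the 7, Arntl was higher in endothelium (1.23 ± 0.20, adjusted p = 3.4e-05) and Nfil3 was lower (-1.05 ± 0.24, adjusted p = 0.00082). The Arntl call followed the aged and treated libraries. In adult Arntl had 13 of 2086998 UMIs in this cluster and 238 of 36171243 in endothelium, a near equal share.

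Stromal cells were few, and 7 libraries had at least 20. Per1 and Per3 were the 2 of 10 members called, both lower in endothelium, where 32% of all genes were called. Per1 was at a lowest, median and highest of 23.4, 40.98 and 53.8 CPM in stromal cells and 9.11, 16.1 and 33.3 in endothelium (-1.02 ± 0.26, adjusted p = 0.0038), and Per3 at 68.2, 140 and 287 CPM against 57.1, 59.1 and 171 (-0.77 ± 0.18, adjusted p = 0.0022). Both were lower in endothelium in 7 of 7 libraries, on 3 to 48 stromal UMIs a library, and without PTH 1 the count was 1. Summed over each group, the day arm gave 92.9% (85.8 to 97.1) of clock UMIs in adult stromal cells, 82.8% (74.6 to 89.1) in PTH, 79.0% (66.8 to 88.3) in alendronate and 75.8% (69.5 to 81.4) in aged. Juvenile stromal cells gave 93.8% (69.8 to 99.8), from 15 day-arm UMIs and 1 night-arm UMI. The make-up differed here too, since the aged stromal cells were all osteoblast-like while 117174 of the 164307 adult stromal UMIs came from mural-like cells, and its part was not tested. In the mesenchymal cluster that was set aside the day arm gave 91.0% (84.8 to 95.3) in adult, 67.3% (52.9 to 79.7) in PTH and 75.6% (60.5 to 87.1) in alendronate.

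Other genes of the clock, which the selection did not use, were tested between groups across all 15205 genes. Of 21 listed, 20 were tested and Usp2 could not be, since no library outside the aged group counts any gene whose symbol begins with U. The list was written with earlier results of these data known. In PTH endothelium 6 of 20 were called against adult, all lower (11.5% of all genes were called). They were led by the PAR bZIP relatives of Dbp, Hlf (-2.13 ± 0.17, adjusted p = 2.2e-09) and Tef (-1.34 ± 0.05, adjusted p = 3.9e-14), with the repressors Bhlhe41 (-1.17 ± 0.14, adjusted p = 7.3e-07) and Cry2 (-1.1 ± 0.08, adjusted p = 1.0e-09). In alendronate endothelium 8 were called (9.28% of all genes). Of these 6 were lower, led by Hlf (-1.46 ± 0.15, adjusted p = 2.0e-07), Ciart (-1.38 ± 0.19, adjusted p = 1.1e-05), Bhlhe41 (-1.28 ± 0.14, adjusted p = 2.5e-07) and Tef (-1.13 ± 0.05, adjusted p = 6.2e-13), and 2 were higher. Hlf was at 8.64 ± 0.30 CPM in adult (mean ± SD, n = 2), 1.86 ± 0.34 in PTH and 3.14 ± 0.17 in alendronate, and Tef at 85.2 ± 1.8, 33.9 ± 0.70 and 38.9 ± 1.8 CPM. The median log2 fold change of the list was -0.03 in PTH and -0.09 in alendronate, beside -5.2e-05 and -0.01 over all genes.

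In juvenile endothelium 5 of 20 were called (18.6% of all genes). Bhlhe41 (-2.42 ± 0.17, adjusted p = 8.7e-11), Hlf (-1.02 ± 0.15, adjusted p = 6.8e-06) and Ciart (-0.79 ± 0.19, adjusted p = 0.0014) were among the 4 that were lower. The repressor Cry1 was higher (0.51 ± 0.09, adjusted p = 7.1e-05), close to the fold threshold. In aged endothelium 5 were called, all higher (55.1% of all genes). Arntl2 (1.98 ± 0.28, adjusted p = 1.7e-06), a relative of Arntl, Hlf (1.081 ± 0.12, adjusted p = 2.3e-08) and Rora (0.66 ± 0.08, adjusted p = 3.5e-07) were among them. Hlf was therefore higher in aged endothelium while its relative Dbp was lower. Scaling by plain library totals moved the median of all genes to 0.36 in this comparison and made 12 of the 20 called. Between PTH and alendronate 3 of 20 were called (10.3% of all genes), Hlf (-0.67 ± 0.21, adjusted p = 0.016), Bhlhe40 (-0.60 ± 0.05, adjusted p = 3.3e-09) and Wee1 (-0.54 ± 0.20, adjusted p = 0.044), all lower in PTH. Bhlhe40 alone was called with DESeq2, Hlf was not called without PTH 1 or alendronate 1, and Wee1 was not called with the replicate number as a block, with the stricter cell filter or with no filter on low counts.

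**Figure D5:**
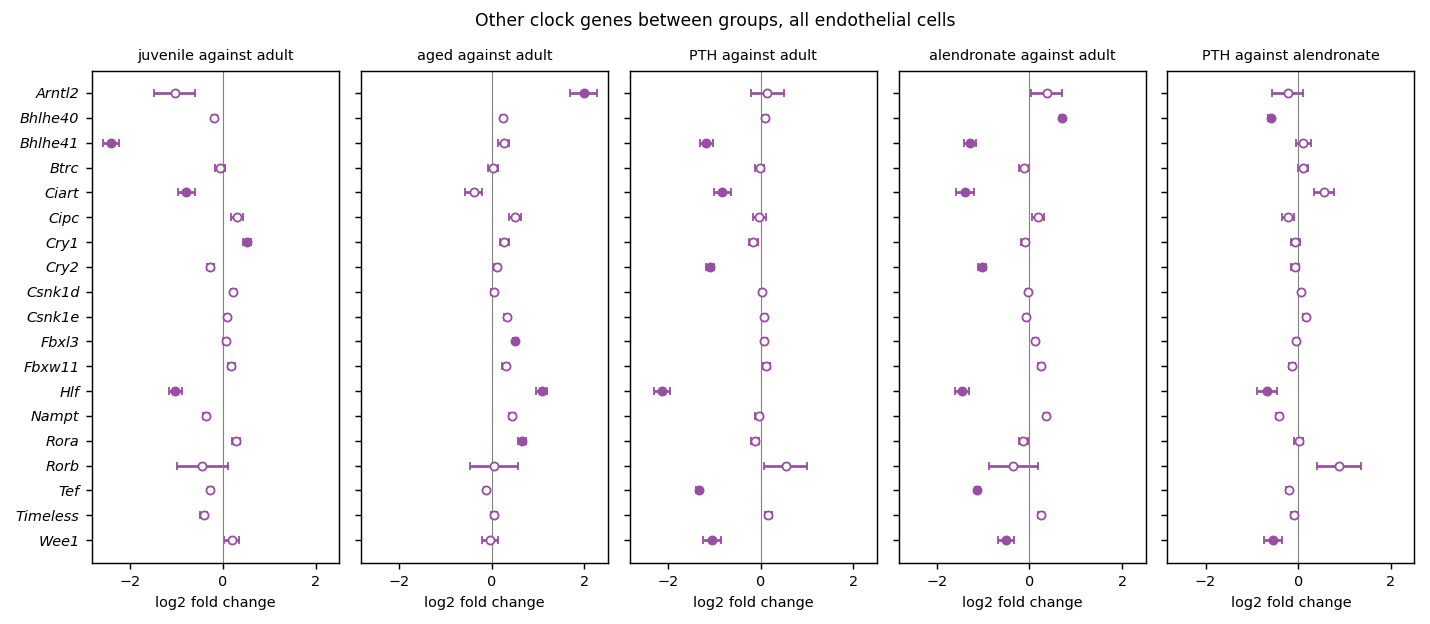
Log2 fold change of other clock genes (rows) in the 5 comparisons of all endothelial cells, with bars of 1 standard error. Filled points passed the test. Hlf lies left of 0 in juvenile (-1.02), PTH (-2.13) and alendronate (-1.46) and right of it in aged (1.081).

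Genes that answer handling and glucocorticoids were measured beside Per1 and Nfil3, which answer the same stimuli. Of 10 immediate early genes, 8 were called lower in juvenile (median log2 fold change -0.91, where 18.6% of all genes were called), led by Egr1 (-1.59 ± 0.06, adjusted p = 1.1e-15) and Zfp36 (-1.35 ± 0.06, adjusted p = 6.1e-14). In aged 7 were called lower and 1 higher (median -1.13, where 55.1% of all genes were called), led by Fosb (-3.28 ± 0.09, adjusted p = 1.5e-18) and Fos (-3.09 ± 0.06, adjusted p = 7.9e-21). Per1 was high in both of these groups. In PTH, where 11.5% of all genes were called, 1 of 10, Atf3, was called (0.52 ± 0.18, adjusted p = 0.030) and in alendronate, where 9.28% were, Atf3 (1.69 ± 0.15, adjusted p = 2.2e-08) and Nr4a1 (1.07 ± 0.07, adjusted p = 1.9e-10), all higher. Of 9 glucocorticoid-induced genes, 5 were called in juvenile, all higher (median 0.54), led by Mt2 (3.10 ± 0.13, adjusted p = 3.1e-14), Zbtb16 (1.84 ± 0.17, adjusted p = 8.0e-09) and Fkbp5 (1.34 ± 0.05, adjusted p = 4.3e-15). In aged 4 of 9 were called, a share below the 55.1% of all genes, all higher and led by Zbtb16 (2.25 ± 0.16, adjusted p = 2.5e-11). In PTH and in alendronate 2 were called higher and 1, Zbtb16, lower (-1.40 ± 0.26, adjusted p = 0.00026, and -1.25 ± 0.25, adjusted p = 0.00064). Between PTH and alendronate 4 of 10 immediate early genes were called lower in PTH, where 10.3% of all genes were called, and no glucocorticoid-induced gene was called. The part of these genes in the levels of Per1 and Nfil3 was not tested.

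As a description across the 10 sums of bmEC-like cells, the genes whose log2 CPM was most like Dbp among 6319 genes were Nub1 (Pearson r = 0.89), Rnf130 (0.87), Impact (0.87), Mapk12 (0.87) and Osbpl6 (0.86). Of the members, Per3 ranked 8 (0.81), Nr1d2 ranked 12 (0.76) and Nr1d1 ranked 15 (0.74) in the same list, and Tef ranked 16 (0.73), while Per1 ranked 2427 (0.02). The genes most like Arntl were Stard4 (0.90), Slc16a1 (0.89), Ddx3x (0.88), Mgp (0.88) and Smg5 (0.88), and Per3 was near the bottom of that list (-0.82, rank 6304). The 10 points form 5 groups of 2 libraries that share scaling and cell sorting, so these values mostly order the groups.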

How the data were processed

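Single-cell libraries were prepared by the authors with a droplet method that tags each transcript with a UMI. Per the labels and the submitters' processing notes, reads were handled with UMI-tools 1.1.2, aligned with STAR 2.7.10a to mm10 and assigned with featureCounts 2.0.3. The kit version of each library and the strand setting are not given in the sources used here. The deposited values are raw UMI counts per gene and cell, not normalized.

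Cells with 500 to 6000 genes and under 25% mitochondrial UMIs were kept. They were clustered in Seurat 5.3.0 (R 4.3.3) on 2000 variable genes and 30 principal components. All cells were first clustered at resolution 1 to separate endothelial, blood and stromal cells. Endothelial cells were then integrated with the adult libraries as reference and clustered at resolution 0.5. Clock genes were kept out of the variable genes, apart from Ciart and Cipc, whose older symbols were not removed. A cluster with mesenchymal markers whose Cdh5 level was at least 0.5 of that of all cells was set aside from endothelial and stromal sums. No doublets were removed from the main sums, and cells with the highest Scrublet scores (scanpy 1.11.5) were removed as an alternative. Classes were named from marker lists. UMIs were summed per library and class (at least 20 cells), scaled by TMM and fitted with edgeR 4.0.16 (quasi-likelihood test, Benjamini-Hochberg adjustment over all genes tested). A gene was called at an adjusted p under 0.05 and an absolute log2 fold change above 0.5. Comparisons of classes and cell kinds used the library as a block. The test was run on simulated counts first.

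The members, the gene lists and the tests were chosen with earlier results of these data known. Named genes were the 10 members, at most 4 called genes of each other list and comparison with the largest absolute log2 fold change, and the 5 genes most like Dbp and the 5 most like Arntl (at least 20 CPM). Genes whose symbols start with U held 1.55% of aged UMIs and none elsewhere, and were left out. Ciart and Cipc were matched by their older symbols. One clock gene of the list was tested and counted but is not reported here. Replicate numbers did not pair samples, since the deviations of same-numbered samples correlated at -0.15 to 0.10 over 10 pairs. Alternatives were DESeq2 1.42.0, other scalings, no filter on low counts, a stricter cell filter (1000 genes, 10% mitochondrial UMIs), resolution 0.8, a replicate block, single classes and leaving out each library.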

Additional observations from a re-analysis of the deposited data

Results flagged for a closer look

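Some comparisons moved one way in every library of one cell class and the opposite way in every library of another. None of these differences between classes was tested, and with 2 libraries a group such a pattern is weak. Values are log2 ratios of the group mean CPM, with no pseudocount, or differences of the day to night log2 ratio. In aged against adult, Nr1d1 was at 0.27 in bmEC-like and -0.94 in rEC-like cells, Nr1d2 at 0.15 in bmEC-like and -0.96 in rEC-like cells, and Per2 at 1.07 in bmEC-like and -0.26 in mpEC-like cells. In alendronate against adult, Per1 was at 0.16 in bmEC-like and -0.33 in aEC-like cells. The bmEC-like side of Nr1d1, Nr1d2 and Per1 depended on the scaling. With bmEC-like sums scaled alone, Nr1d1 was at 36.9 and 28.8 CPM in aged against 28.6 and 30.5 in adult. Nr1d2 was at 74.8 and 68.0 in aged against 68.9 and 70.8 in adult. Per1 was at 11.85 and 14.1 in alendronate against 11.5 and 11.87 in adult, so all of these groups overlapped. In PTH against alendronate, Per3 was at 0.29 in bmEC-like and -0.37 in mpEC-like cells, and the day to night ratio at 0.21 and -0.55 in the same classes.

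Endothelium and pooled blood cells also went opposite ways. Arntl differed from adult by 0.44 in juvenile endothelium against -1.62 in blood, by 1.76 against -1.32 in aged and by 1.67 against -1.94 in PTH. The day to night ratio differed from adult by -0.43 in juvenile endothelium against 1.30 in blood and by -2.05 against 1.46 in PTH. The ratios of the juvenile blood libraries were far apart, at 2.52 and 0.66. Per1 in PTH was at -0.60 in endothelium and 1.396 in blood. In PTH against alendronate, Per1 was at -0.71 in endothelium and 0.32 in blood, the day to night ratio at -0.14 and 1.502, and Nr1d2 at -0.40 in endothelium and 0.94 in stromal cells. The stromal value rested on 10 and 20 UMIs in PTH and 7 and 3 in alendronate. The share of lymphoid cells in blood differed between these groups, from 0 cells in PTH to 38.1% and 40.99% in adult. Within the Elane and Mpo cluster and within erythroid cells, Arntl had a higher share of UMIs in PTH than in adult. Counts were 16 of 1542517 against 13 of 2086998, and 14 of 1282459 against 5 of 1008982. The opposite direction of Arntl in PTH thus did not hold within these types. That of Per1 in PTH did, at 30 of 1542517 against 11 of 2086998, and 18 of 1282459 against 8 of 1008982. The mean day to night ratio of PTH was not above adult within these types. It was 1.79 against 1.81 in the Elane and Mpo cluster and 1.575 against 2.4 in erythroid cells. Alendronate was at 1.55 and 1.54 in the same order, closer to PTH than in the pooled blood cells. Juvenile Arntl was no higher than adult in either type, at 0 of 275499 and 5 of 1092163 UMIs. These counts are small and were not tested.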

How the results depend on the processing

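The day to night log2 ratio of aged, PTH and alendronate against adult stayed below 0 under every alternative run. Against adult, the juvenile, aged and alendronate differences were -0.67, -1.92 and -1.99 without Per1 and Nfil3. They were -0.31, -1.20, -1.55 and -1.76 (juvenile, aged, PTH, alendronate) in bmEC-like cells only, -1.18, -1.97, -2.25 and -2.01 in aEC-like, -0.82, -3.74, -3.88 and -4.04 in rEC-like and -0.25, -1.61, -1.41 and -1.26 in pEC-like cells. In mpEC-like cells juvenile, PTH and alendronate were at -0.53, -2.18 and -1.64. Leaving out each library gave -1.79 to -1.66 in aged. PTH against alendronate was not stable, at -0.029 without Per1 and Nfil3, -0.55 in mpEC-like cells and -0.24 in aEC-like cells, and turned to 0.21 in bmEC-like and 0.16 in rEC-like cells. Dbp turned to 0.040 in that comparison in bmEC-like cells only. The single mpEC-like, rEC-like and pEC-like values were added after seeing the data, and the causes were not tested.

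The count of other clock genes called rose from 5 to 12 in aged against adult with plain library totals and fell from 3 to 1 in PTH against alendronate with DESeq2. Members called in bmEC-like cells fell from 5 to 3 at resolution 0.8, ranged from 3 to 6 when each library was left out and were 2 without the aged libraries. The ranges were 4 to 7 in pEC-like cells and 1 to 2 against stromal cells. Of the 50 member fold changes over the 5 comparisons, 40 moved beyond the replicate spread and 1 reversed in bmEC-like cells only, and 13 moved with plain library totals. Values near 0 also turned sign. Apart from Npas2, for which no fold change is given, these were Nr1d1 and Nr1d2 in aged against adult (0.26 and 0.041 with plain totals, 0.16 and 0.033 in bmEC-like cells) and Per3 in PTH against alendronate (0.038 and 0.28), and, with 1 library left out, Nr1d1 (0.032) and Per2 (-0.021) in aged. With the replicate number as a block, the member fold changes of all 5 comparisons kept their direction and stayed within the replicate spread, and the other clock genes called in PTH against alendronate were 2 in place of 3. Npas2, with 3 to 29 UMIs a library, and the pEC-like and stromal sums are limited by depth.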
